A study of Arabidopsis thaliana with 84 samples.

Results

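Roots of Arabidopsis thaliana (accession Col-0) were compared after 2 h in nitrate and after 2 h in potassium chloride, on 6 of the 84 Affymetrix ATH1 arrays of the series. The arrays were chosen by their titles alone, as whole roots frozen directly after 2 h of treatment, 3 with KNO3 and 3 with KCl. Plants of both groups were 12 days old and had grown hydroponically at 22 °C with 16 h of light and 8 h of dark, on 0.5 mM ammonium succinate as the only nitrogen source and 3 mM sucrose. At dawn the KNO3 group received 5 mM KNO3 and the KCl group 5 mM KCl, so both received potassium, the KNO3 group with nitrate and the KCl group with chloride. Other plants of the same background were frozen after 3.5 h in 5 mM KNO3 or 5 mM KCl, again 3 arrays each, and are used here as a second reading. The remaining arrays hold incubated roots, unsorted protoplasts and sorted root cells, all from 2 h of 5 mM KNO3 or 5 mM KCl. Incubated roots were held after treatment in protoplast-generating solution without enzymes. For KNO3 roots that solution either held KNO3 (continuous) or did not (transitory), and protoplasts and sorted cells carry the same words in their titles. Some sorted pericycle cells also received 1 mM MSX, 1 group of them with 5 mM glutamine. Titles call the 3 arrays of a group biological replicates. Total RNA came from TRIzol extracts of whole roots and was labelled in 1 cycle from 1000 ng.

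Nitrate is both a nutrient and a signal for roots. Within minutes to hours of nitrate supply, NLP transcription factors switch on genes for nitrate uptake, for nitrate and nitrite reduction, and for the supply of NADPH through the oxidative pentose phosphate pathway, which feeds nitrite reduction in root plastids. The same response includes HHO and HRS1 repressors of the GARP family, which in turn hold down genes of nitrogen starvation.

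No probe set passed the test for a difference between KNO3 and KCl at 2 h. Of 20236 probe sets tested with limma, 0 had a Benjamini-Hochberg adjusted p of at most 0.05 (0% of those tested), and 237 (1.17%) had an unadjusted p below 0.05. Chance alone would give about 1012. The smallest adjusted p was 0.785. The median standard error (SE) of a difference was 0.29 on the log2 scale. The means of the nitrate markers were higher in KNO3, by 1.71 for PGD3 and 1.04 for HHO1 on the log2 scale, without passing the test. The 3 KCl arrays differed so much among themselves that values are given array by array. A single gene cannot reach an exact two-sided permutation p under 0.1 with 3 arrays against 3. The number of arrays, 3 in each group, limits the precision, and the SE also depends on which arrays share the spread. The limma fit above shared it over 30 one-cycle arrays. Without the 5 whose median correlation was under 0.7, the median SE was 0.21 and 308 had an unadjusted p below 0.05. On the 6 arrays alone these were 0.33 and 95. On the directly frozen arrays without KCl replicate 1, chosen after seeing the data, they were 0.16 and 1100. Each gave 0 calls, and a count below 1012 is not evidence of no response.

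The 3 KCl arrays did not resemble each other. KCl replicate 1 had a median Pearson correlation of 0.169 with the other one-cycle arrays, against 0.903, 0.889 and 0.913 for KNO3 replicates 1, 2 and 3 and 0.914 and 0.903 for KCl replicates 2 and 3. Its values spanned a narrow range, with a standard deviation (SD) over probe sets of 0.62 log2 units, against 1.03 to 1.11 in the KNO3 arrays and 1.11 and 1.18 in the other KCl arrays. It lay outside the range of the other 5 arrays for 83.6% of probe sets. The control probe set for the middle of GAPDH, a constitutive gene, was low in it: it read 9.75, 10.79 and 11.02 in KNO3 replicates 1 to 3, against 6.93, 10.95 and 10.63 in KCl replicates 1 to 3. Among the 9 arrays of incubated roots, KCl replicate 1 correlated most with KCl replicate 1 of that set, at 0.89, followed by incubated roots in continuous KNO3, replicate 2, with 0.84. Those 2 arrays also stood apart from the rest, with median correlations of 0.15 and 0.103.

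KCl replicate 2 lay closest to a KNO3 array. The SD of its difference from KNO3 replicate 3 over the tested probe sets was 0.25 log2 units, and 105 probe sets differed by more than 2-fold. Every other pair without KCl replicate 1 had an SD of 0.38 to 0.42 and 345 to 592 such probe sets. A set of 12 control probe sets for Bacillus transcripts (dap, lys, phe and thr), which do not report on the root, also differed between the arrays. They averaged 4.37, 4.43 and 5.84 log2 units in KNO3 replicates 1, 2 and 3, against 5.74, 5.98 and 4.76 in KCl replicates 1, 2 and 3. Between KNO3 replicate 3 and KCl replicate 2 the median absolute difference of these 12 probe sets was 0.11, the smallest of the 15 pairs, and between KNO3 replicate 2 and KCl replicate 3 it was 0.12. In the arrays frozen at 3.5 h the closest partner of KNO3 replicate 1, of KNO3 replicate 2 and of KNO3 replicate 3 was the KCl array of the same number, with SDs of 0.20, 0.18 and 0.25. The Bacillus probe sets did not follow that order at 3.5 h, with median absolute differences of 0.39, 0.23 and 1.06 for the same pairs. What produced these pairings was not tested. Whether any array carries another array's label was not tested either, and every KNO3 minus KCl difference given here follows the labels as deposited.

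**Figure D1:**
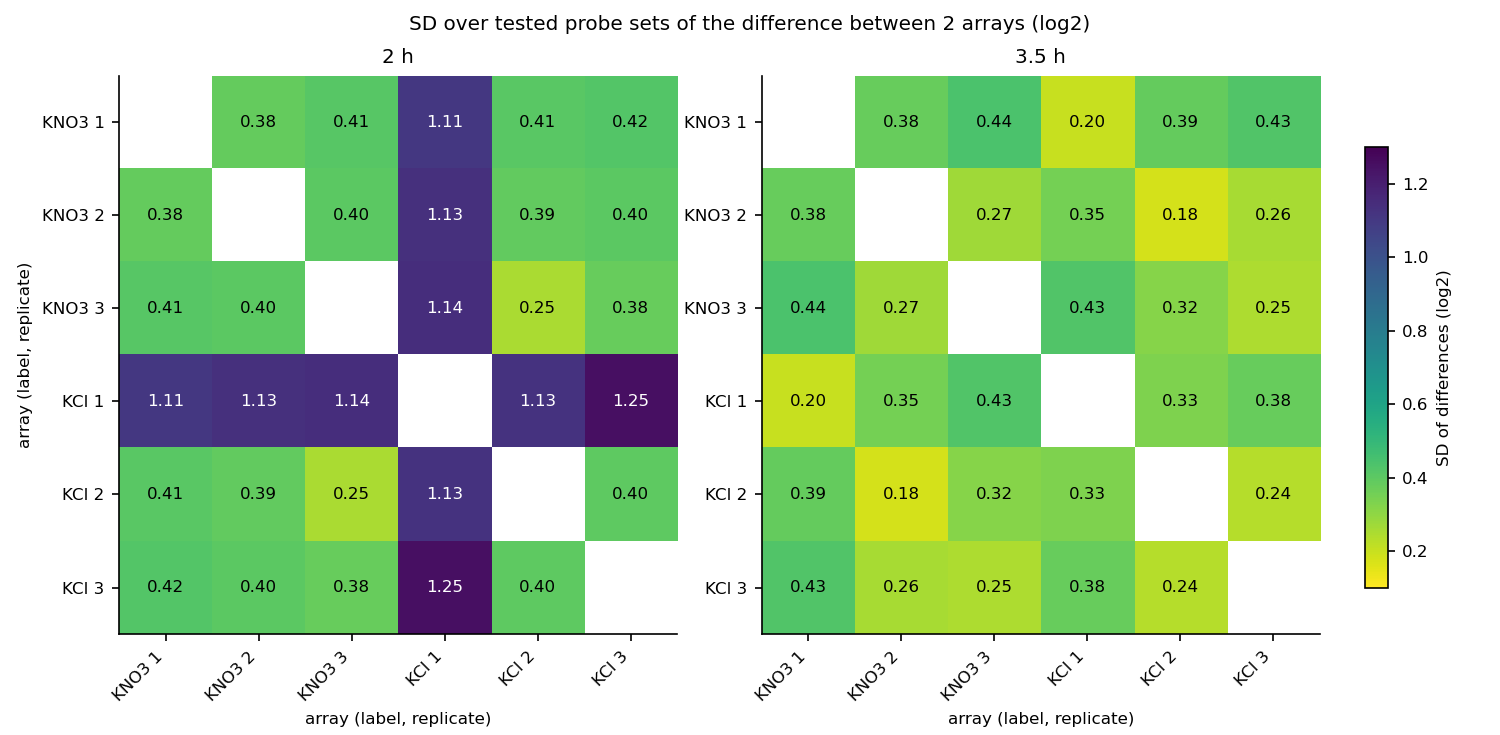
Standard deviation, over the 20236 tested probe sets, of the difference between each pair of arrays in log2 units, at 2 h (left) and 3.5 h (right). At 2 h KCl replicate 1 is far from all 5 others (1.11 to 1.25) and KCl replicate 2 is nearest KNO3 replicate 3 (0.25), and at 3.5 h arrays of the same number are close across the labels.

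The oxidative pentose phosphate pathway was represented by 3 genes. PGD3 (AT5G41670) encodes 6-phosphogluconate dehydrogenase, an enzyme of the pathway that yields NADPH, and is a marker of the nitrate response. Its signal was 9.36, 8.91 and 9.91 log2 units in KNO3 replicates 1, 2 and 3, against 5.54, 10.27 and 7.23 in KCl replicates 1, 2 and 3. KCl replicate 2 was the highest of the 6 arrays, KCl replicates 1 and 3 were the lowest, and the groups overlapped. The means were 9.39 ± 0.50 in KNO3 and 7.68 ± 2.39 in KCl (SD, n = 3 each), a difference of 1.71 with an SE of 1.03 (limma adjusted p = 0.785, exact permutation p = 0.4). Without KCl replicate 1 the difference was 0.65, and without KCl replicate 2 it was 3.01.

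PGD1 (AT1G64190), a second gene for the same enzyme, followed the same order among the KCl arrays. Its signal was 10.05, 9.55 and 9.90 in KNO3 replicates 1 to 3, against 5.99, 10.50 and 8.23 in KCl replicates 1 to 3. The difference was 1.60 (SE 0.94, limma adjusted p = 0.785), and 0.47 without KCl replicate 1. PGD2 (AT3G02360), the third gene of the family, separated KCl replicate 1 only: it read 8.81, 9.26 and 9.27 in KNO3 replicates 1 to 3, against 6.14, 9.12 and 9.50 in KCl replicates 1 to 3. Its difference of 0.86 (SE 0.70) turned to -0.20 without KCl replicate 1. Unlike PGD1 and PGD3, PGD2 was not lower in KCl replicate 3 than in KCl replicate 2.

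Carbon metabolism genes of the nitrate list behaved like PGD1 and PGD3. PGM (AT1G78050), a phosphoglycerate mutase, read 8.19, 7.29 and 7.86 in KNO3 replicates 1 to 3, against 6.13, 8.50 and 6.65 in KCl replicates 1 to 3. GLYK (AT1G80380), glycerate kinase, read 7.48, 8.76 and 7.43 in KNO3, against 6.03, 8.33 and 6.49 in KCl. In both genes KCl replicates 1 and 3 lay below all KNO3 arrays, and KCl replicate 2 lay among or above them. The differences were 0.69 (SE 0.59) for PGM and 0.94 (SE 0.62) for GLYK, both with a limma adjusted p of 0.785, and 0.21 and 0.48 without KCl replicate 1.

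Among the nitrate regulators, HHO1 came closest to a separation of the groups. HHO1 (AT3G25790) encodes a GARP-family repressor and is the other marker of the response. Its signal was 6.50, 6.47 and 6.04 in KNO3 replicates 1, 2 and 3, against 4.92, 6.06 and 4.92 in KCl replicates 1, 2 and 3. KCl replicate 2 was 0.01 above the lowest KNO3 array, and the other 2 KCl arrays lay more than 1 log2 unit below every KNO3 array. The means were 6.34 ± 0.25 in KNO3 and 5.30 ± 0.66 in KCl (SD, n = 3 each), a difference of 1.04 with a 95% interval of 0.25 to 1.83 (limma unadjusted p = 0.0122, adjusted p = 0.785, exact permutation p = 0.2). The difference was 0.85 without KCl replicate 1 and 1.42 without KCl replicate 2.

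HHO2 (AT1G68670) and HHO3 (AT1G25550), relatives of HHO1, had KCl replicate 2 above all KNO3 arrays. HHO2 read 7.29, 7.43 and 7.24 in KNO3 replicates 1 to 3, against 5.80, 7.61 and 6.44 in KCl replicates 1 to 3. HHO3 read 7.27, 7.64 and 7.58 in KNO3, against 6.30, 7.86 and 6.71 in KCl. In both genes KCl replicates 1 and 3 lay below every KNO3 array. Differences were 0.70 (SE 0.40) for HHO2 and 0.54 (SE 0.40) for HHO3 (limma adjusted p = 0.785 each), and 0.29 and 0.21 without KCl replicate 1. HHO5 (AT4G37180), a more distant member of the family, showed no such order: it read 5.71, 6.26 and 5.82 in KNO3, against 5.88, 5.66 and 6.04 in KCl, with a difference of 0.07 (SE 0.24).

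**Figure D2:**
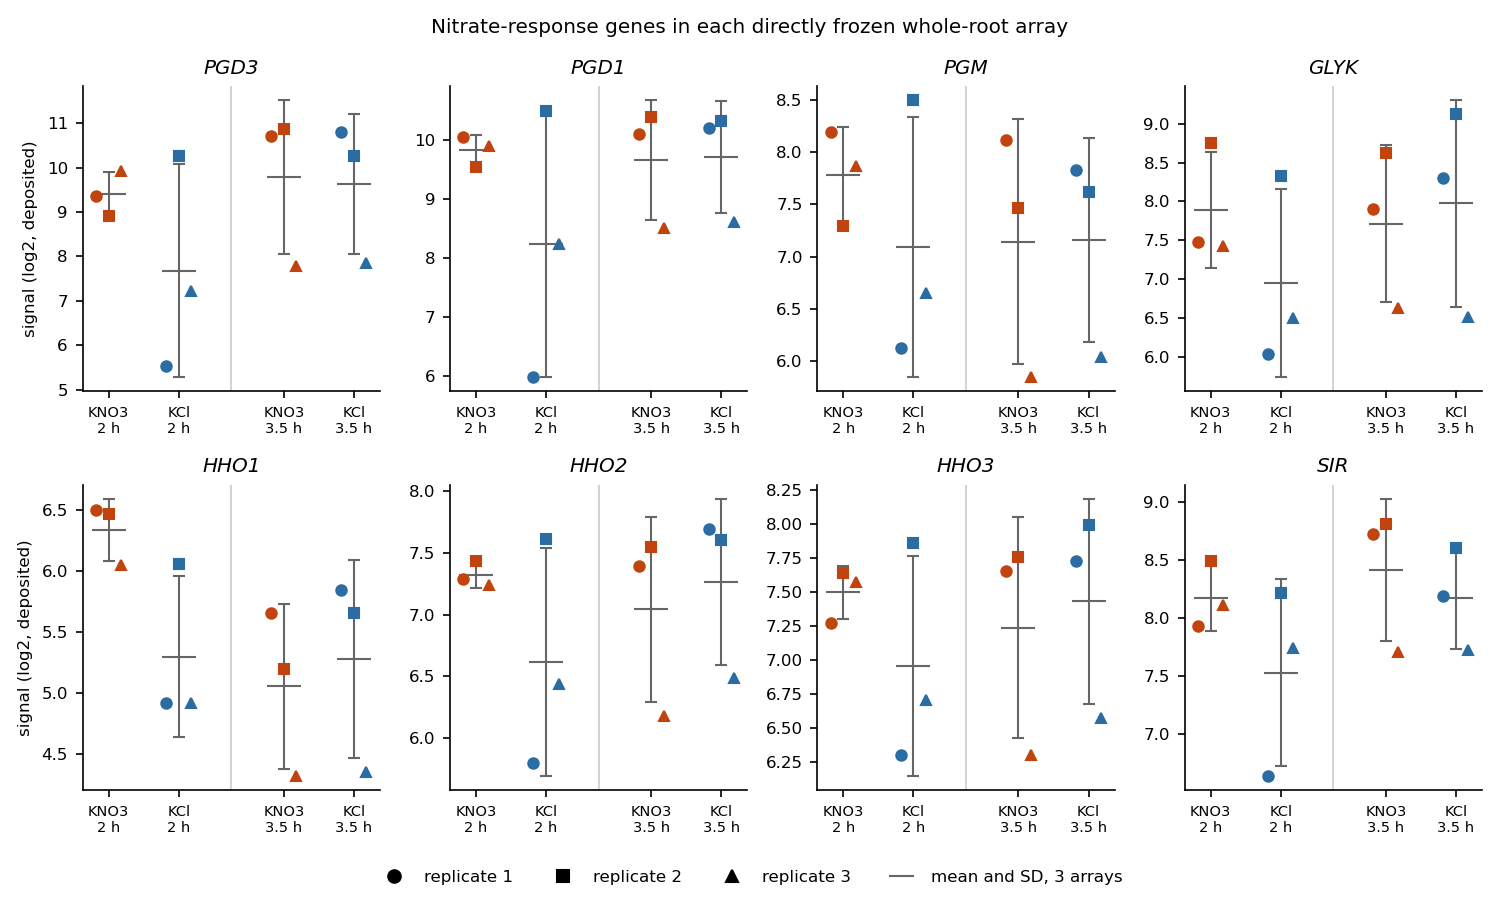
Deposited log2 signal of 8 nitrate-related genes in each directly frozen whole-root array, KNO3 (orange) left of KCl (blue) at 2 h and at 3.5 h; symbols mark the replicate, and grey bars the mean and SD of 3 arrays. At 2 h KCl replicate 2 lies among or above the KNO3 arrays and KCl replicates 1 and 3 below in most genes, and at 3.5 h replicates 1 and 2 of both labels lie above replicate 3 of both labels.

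Transport and assimilation of nitrogen were hardly covered. Of 63 listed genes for nitrate transport, nitrate reduction and reductant supply, nitrogen assimilation and nitrate regulation, 11 had a probe set with 1 annotated gene. For NRT2.5 (AT1G12940), a high-affinity nitrate transporter known for its expression in nitrogen-starved plants, the 5 arrays other than KCl replicate 1 lay close together. It read 5.28, 5.18 and 5.23 in KNO3 replicates 1 to 3, against 6.21, 5.21 and 5.02 in KCl replicates 1 to 3. These levels lay under the filter value of 5.58 in every array except KCl replicate 1. The cytosolic isocitrate dehydrogenase gene cICDH (AT1G65930), which supplies the carbon skeleton for ammonium assimilation, read 9.78, 10.54 and 10.34 in KNO3, against 6.72, 10.32 and 10.59 in KCl. Its difference of 1.01 (SE 0.96) became -0.23 without KCl replicate 1.

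Sulfur assimilation, which supplies cysteine and shares siroheme with nitrite reduction, had 3 measured genes. SIR (AT5G04590), sulfite reductase, read 7.93, 8.49 and 8.11 in KNO3 replicates 1 to 3, against 6.63, 8.21 and 7.74 in KCl replicates 1 to 3. KCl replicates 1 and 3 lay below every KNO3 array and KCl replicate 2 between them, with a difference of 0.65 (SE 0.45, limma adjusted p = 0.785) that was 0.20 without KCl replicate 1. The ATP sulfurylase genes APS3 and APS4 differed by 0.14 (SE 0.30) and 0.58 (SE 0.75), and APS4 by -0.54 without KCl replicate 1.

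The lists for reductant supply and for regulators had positive medians, described here by counts. Of 5 genes for reduction and reductant supply, 0 passed the test, all 5 had a positive difference, and the median was 0.94. Of 4 regulators, 0 passed, all 4 were positive, and the median was 0.62. Over all probe sets tested, 7626 of 20236 were positive and the median was -0.11. Without KCl replicate 1 these medians became 0.47 for reductant supply, where PGD2 turned negative, 0.25 for regulators and 0.02 for all probe sets. The reductant genes were bright, with median levels of 8.81, 8.91 and 9.27 in KNO3 replicates 1 to 3, against 5.91, 5.94 and 5.88 over all probe sets. KCl replicate 1 lay below all KNO3 arrays in all 5, and above them in 55.0% of all probe sets. The count of positive differences cannot be told apart from brightness in that array. The only measured gene of nitrate transport, NRT2.5, had a difference of -0.25 (SE 0.28), and 0.11 without KCl replicate 1. All KNO3 arrays lay above all KCl arrays for 0 of the 9 genes of both lists, where 408 of all probe sets did so (2.02%), and below them for 0 of the 9, where 439 of all probe sets did so (2.17%).

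A list from other arrays shows the same order over more probe sets. In the 54 two-cycle arrays of sorted root cells, which share no array with the whole roots and were labelled by another protocol, 48 probe sets were higher in continuous KNO3 than in KCl on the mean of 5 cell populations and 39 were lower (limma adjusted p at most 0.05). Arrays in transitory KNO3 or with MSX entered that fit but not the contrast. The list was taken from a comparison whose results were already known. Of the 48, 21 have 1 annotated gene, PGD1, PGD3, PGM, GLYK, HHO1 and HHO3 among them. The median deviation of the 48 from the mean of the 3 whole-root KNO3 arrays was -0.08, 0.13 and 0.04 in KNO3 replicates 1, 2 and 3, against -1.54, 0.41 and -1.02 in KCl replicates 1, 2 and 3. KCl replicates 1 and 3 thus lay low on this list, and KCl replicate 2 lay above the KNO3 arrays. The 48 are bright probe sets, with median levels of 7.61, 7.99 and 7.66 in KNO3 replicates 1 to 3. Over all probe sets these were 5.91, 5.94 and 5.88. Bright genes outside the list, such as cICDH (6.72) and PGD2 (6.14), were low in KCl replicate 1 too. Its low place on the list cannot be told apart from its narrow range of values.

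Counted gene by gene, the split was as wide. KCl replicate 3 lay below all 3 KNO3 arrays in 43 of the 48 probe sets and above them in 0, where it did so in 31.2% and 22.5% of all probe sets. KCl replicate 1 lay below in 42 and above in 2, where it did so in 31.8% and 55.0% of all probe sets, which are dimmer on the median. KCl replicate 2 lay below in 1 and above in 27, where it did so in 20.2% and 19.2% of all probe sets. With the 3 KCl arrays together, 46 of the 48 had a positive KNO3 minus KCl difference, with a median of 0.78, and 0 passed the test. Without KCl replicate 1 the median was 0.33, against 0.02 over all probe sets.

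Named members of that list other than those above followed it to different degrees, and were chosen after their values were seen. AT3G07350 read 7.75, 7.05 and 7.46 in KNO3 replicates 1 to 3, against 5.99, 7.98 and 5.46 in KCl replicates 1 to 3. AT1G49500 read 7.14, 8.68 and 7.34 in KNO3, against 7.19, 7.81 and 5.77 in KCl, so that KCl replicate 3 alone lay below all KNO3 arrays. AT1G59740, named NPF4.3 in RefSeq, of the NRT1/PTR family of transporters, read 6.99, 7.09 and 7.15 in KNO3, against 6.25, 7.44 and 6.97 in KCl. For NPF4.3, KCl replicate 3 lay just under the lowest KNO3 array. MT1C, a metallothionein gene, read 10.03, 10.50 and 10.78 in KNO3, against 8.96, 11.00 and 9.49 in KCl.

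The 39 probe sets lower in nitrate in sorted cells gave another order of the KCl arrays. Their median deviation was 0.10, 0.02 and -0.11 in KNO3 replicates 1, 2 and 3, against -0.38, -0.38 and 0.33 in KCl replicates 1, 2 and 3. KCl replicate 3 was the array in which they were highest.

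**Figure D3:**
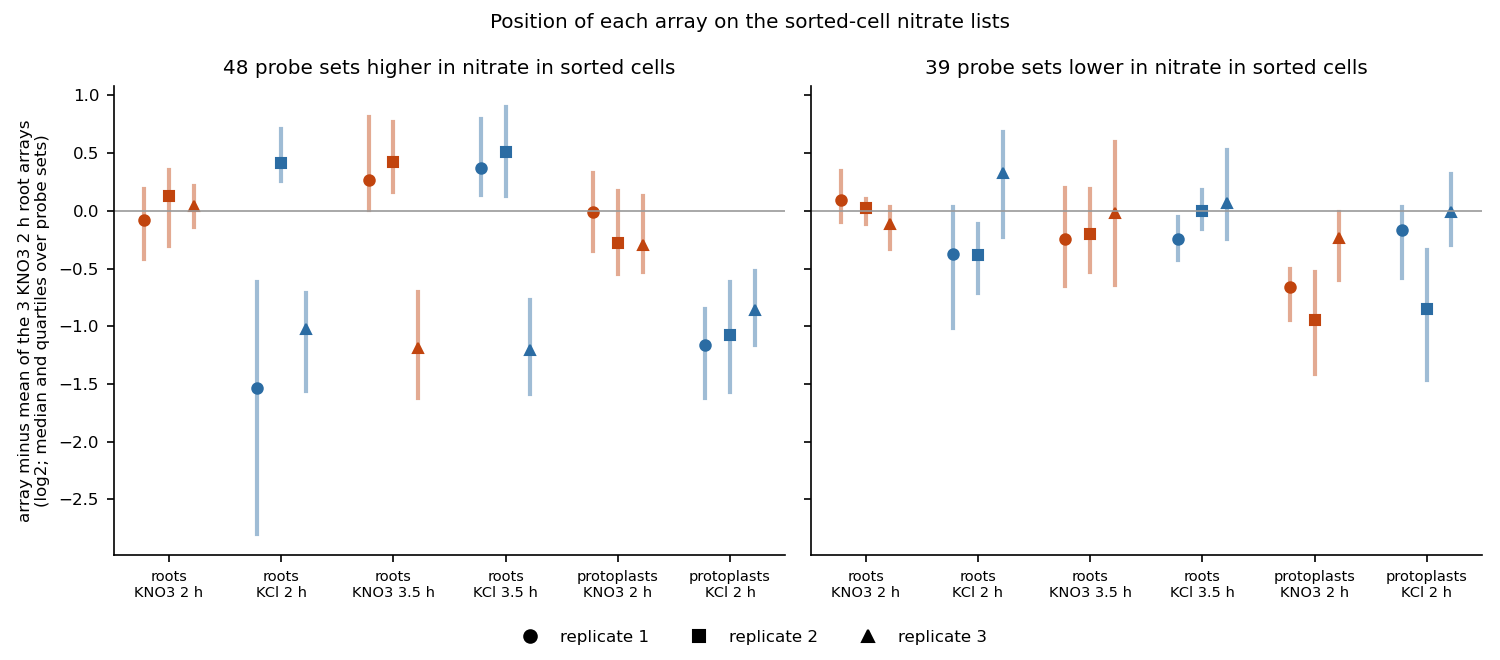
Median (symbol) and quartiles (bar) over probe sets of each array's deviation from the mean of the 3 KNO3 root arrays at 2 h, in log2 units, for the 48 probe sets higher (left) and the 39 lower (right) in nitrate in sorted cells. On the left KCl replicates 1 and 3 at 2 h sit at -1.54 and -1.02 and KCl replicate 2 at 0.41, while at 3.5 h replicates 1 and 2 sit above 0 and replicate 3 below -1 under both labels.

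At 3.5 h the labels and the nitrate genes did not go together either. In the arrays labelled KNO3, PGD3 read 10.71, 10.86 and 7.78 in replicates 1, 2 and 3, against 10.79, 10.25 and 7.84 in the arrays labelled KCl. HHO1 read 5.65, 5.20 and 4.32 in the arrays labelled KNO3, against 5.84, 5.65 and 4.35 in those labelled KCl. Replicate 3 was low and replicates 1 and 2 were high under both labels. On the 48 probe sets the medians were 0.27, 0.42 and -1.19 in the arrays labelled KNO3, against 0.37, 0.51 and -1.21 in those labelled KCl. Of all probe sets, 0 passed the test at 3.5 h (0%), and 25 had an unadjusted p under 0.05 (0.124%). In that fit, with its spread shared over the 30 one-cycle arrays, the median SE was 0.29, against 0.10 on the 6 arrays of 3.5 h alone. Same-numbered arrays deviated together at this time, and with the replicate number as a block, on these 6 arrays alone, 0 passed in limma, the smallest adjusted p was 0.065 and 3650 had an unadjusted p under 0.05, against 1215 on the same arrays without the block.

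Within the numbered pairs at 3.5 h, HHO1, HHO2 and HHO3 read lower in the array labelled KNO3 in all 3 pairs. HHO1 differed by -0.19, -0.46 and -0.03 in pairs 1, 2 and 3, HHO2 by -0.30, -0.06 and -0.30, and HHO3 by -0.07, -0.23 and -0.28. PGD3 differed by -0.08, 0.61 and -0.07, with no common direction. These are values without a test of their own.

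The difference between the responses at 3.5 h and at 2 h was tested in the same fit. It passed for 0 probe sets (0%), with 139 at an unadjusted p under 0.05 (0.687%). PGD3 differed by -1.56 (SE 1.46) and HHO1 by -1.26 (SE 0.54) between the times, both with a limma adjusted p of 0.97. In unsorted protoplasts after 2 h of continuous KNO3, PGD3 read 9.85, 9.10 and 9.50, against 8.19, 7.74 and 7.89 in protoplasts in KCl. There the groups did not overlap, and all 3 KCl arrays were low on the 48 probe sets, with medians of -1.16, -1.07 and -0.86. Incubated roots followed their labels only in part on the 48. Their medians were 0.08, 0.15 and -1.13 in transitory KNO3 and -1.06, -1.38 and 0.04 in continuous KNO3. In incubated KCl roots they were -1.35, -1.46 and -1.18. Replicates 1 and 2 in continuous KNO3 and in KCl had median correlations under 0.7, and transitory KNO3 replicate 3 had 0.902.

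Probe sets in which the groups did not overlap at 2 h had narrow gaps. All 3 KNO3 arrays lay above all 3 KCl arrays in 408 probe sets, with a median gap of 0.065 log2 units between the nearest arrays, and below them in 439, with a median gap of 0.046. With labels placed at random, 1 of the 20 possible arrangements puts all KNO3 arrays above all KCl arrays, and 1 puts them below. The shares at 2 h, 2.02% and 2.17% of the tested probe sets, were each below 1 in 20. At 3.5 h the counts without overlap were 1342 (6.63%) and 1225 (6.05%). Of the 408, 9 lay in the same direction at 3.5 h (2.21% of the 2 h probe sets and 0.671% of those at 3.5 h) and 59 in the opposite one (14.5% and 4.82%). Of the 439, 10 lay in the same direction (2.28% and 0.816%) and 52 in the opposite one (11.8% and 3.87%). The 2 times share no array.

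The 12 named genes with the widest gap above KCl were chosen by that gap, so it is a description. They span 0.22 to 0.44 log2 units of gap, and the next gene, AT5G07960, had 0.215. First came AT5G60530, with 7.58, 8.09 and 7.62 in KNO3 replicates 1 to 3, against 6.91, 7.10 and 7.14 in KCl replicates 1 to 3. AT5G60520, its neighbour on the chromosome in the TAIR10.1 annotation, came second, with 6.86, 6.65 and 6.73 in KNO3, against 6.23, 6.14 and 6.29 in KCl. In both neighbours KCl replicate 1 lay close to the other KCl arrays, unlike in PGD3, and the differences of 0.71 and 0.53 were 0.64 and 0.53 without it.

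In the other 10 genes, as in AT5G60530, KCl replicate 1 was the lowest of the 6 arrays. AT2G02050 read 7.70, 7.93 and 7.68 in KNO3, against 5.99, 7.39 and 7.20 in KCl. AT1G23410 read 7.45, 7.15 and 7.11 in KNO3, against 5.86, 6.89 and 6.74 in KCl. AT1G23100 read 6.43, 6.68 and 6.23 in KNO3, against 5.58, 6.02 and 5.93 in KCl, a difference of 0.61 (SE 0.27, limma unadjusted p = 0.0325, adjusted p = 0.785). Without KCl replicate 1 the differences of these 3 genes were 0.47, 0.42 and 0.48.

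Both AT3G18280 and AT2G45180 were also among the 12 genes chosen. AT3G18280 read 8.03, 7.71 and 7.81 in KNO3, against 7.06, 7.47 and 7.22 in KCl, and AT2G45180 read 7.91, 7.80 and 7.59 in KNO3, against 6.42, 6.94 and 7.36 in KCl. The remaining genes were AT1G05575, AT5G54970, AT1G19020, AT3G02900 and the transcribed pseudogene AT3G27450, with differences of 0.68, 0.69, 0.99, 0.55 and 0.42. The smallest unadjusted p of the 12 was the 0.0325 of AT1G23100.

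**Figure D4:**
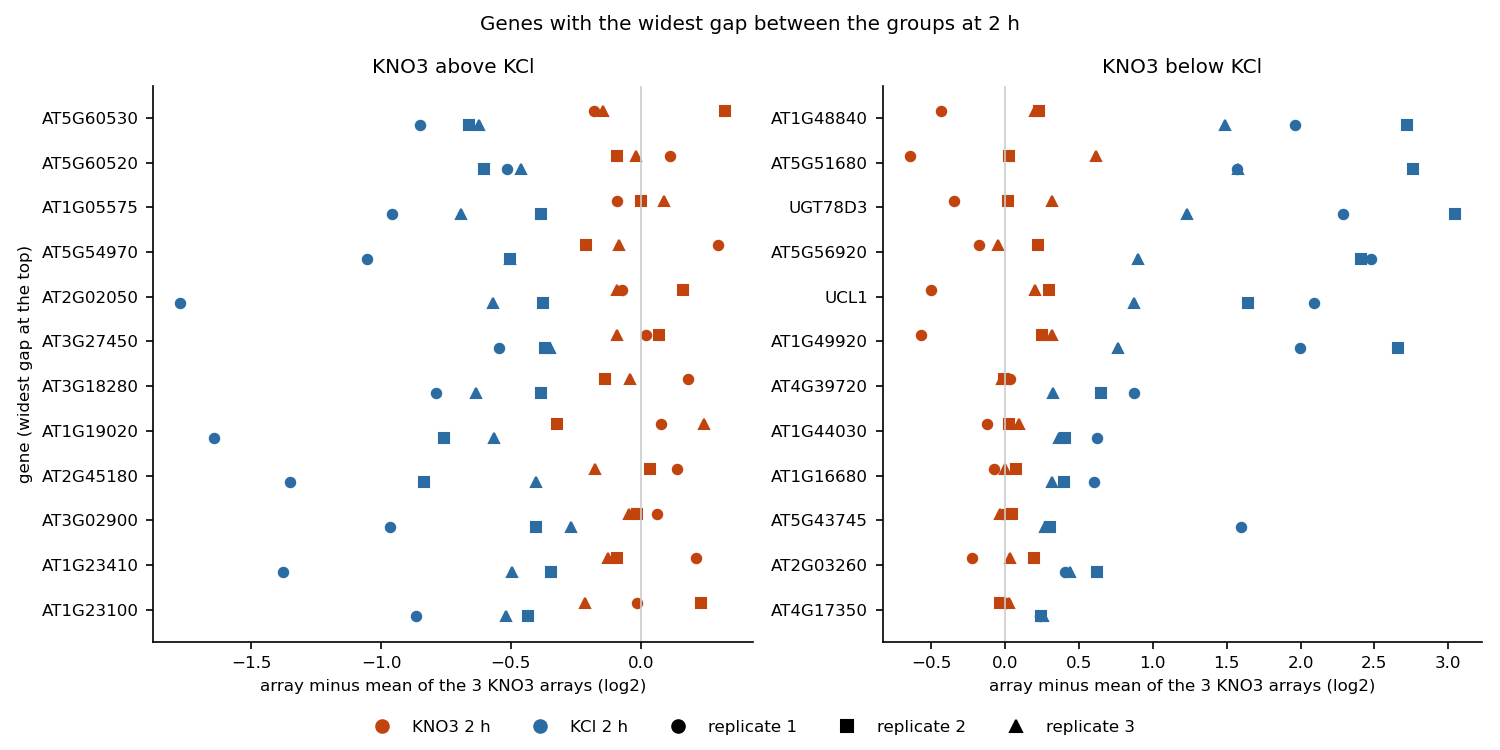
Level of each array minus the mean of the 3 KNO3 arrays (log2) for the 12 genes with the widest gap above KCl (left) and below KCl (right) at 2 h, KNO3 in orange and KCl in blue, widest gap at the top. On the right the first 6 genes have mean differences of -1.54 to -2.19 and the other 6 of -0.25 to -0.72.

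The 6 widest gaps below KCl were larger than any above it among the named genes. Genes below KCl were chosen by their gap too, so the gap and the unadjusted p-values are a description. AT1G48840 read 6.77, 7.43 and 7.41 in KNO3 replicates 1 to 3, against 9.16, 9.92 and 8.70 in KCl replicates 1 to 3, a gap of 1.26 and a difference of -2.06 (SE 0.64, limma unadjusted p = 0.00353, adjusted p = 0.785). AT5G51680 read 6.97, 7.64 and 8.22 in KNO3, against 9.18, 10.37 and 9.19 in KCl. UGT78D3, a flavonol arabinosyltransferase, read 5.60, 5.96 and 6.26 in KNO3, against 8.23, 8.98 and 7.17 in KCl, and had the lowest unadjusted p of the 12 genes below KCl (0.00155). In all 3 genes KCl replicate 2, which lay with the KNO3 arrays in nitrate genes, was the highest of the 6 arrays.

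In the other 3 genes, chosen by the same gap, KCl replicate 3 was the lowest KCl array. AT5G56920 read 6.09, 6.49 and 6.22 in KNO3, against 8.74, 8.67 and 7.16 in KCl. UCL1, an F-box protein, read 7.70, 8.50 and 8.41 in KNO3, against 10.30, 9.85 and 9.07 in KCl. AT1G49920 read 6.20, 7.01 and 7.08 in KNO3, against 8.76, 9.42 and 7.53 in KCl. The 6 differences, -1.54 to -2.19 with all arrays, were -1.26 to -2.17 without KCl replicate 1.

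These 6 genes varied together on arrays outside the comparison. Across the 24 one-cycle arrays other than the 6, their pairwise correlations were 0.83 to 0.98 with a median of 0.91, and 0.77 to 0.98 across the 20 of these that do not stand apart. The arrays share the platform and the labelling protocol, and the correlations are descriptive. Among the 20, KNO3 replicate 3 at 3.5 h was the highest array in all 6 genes. For AT1G48840 it read 10.16, and the next highest, protoplasts in transitory KNO3, replicate 3, read 8.19. How far this 1 array carries the correlations was not tested. For comparison, the 6 genes with the widest gap above KCl had a median correlation of 0.49 over the same 24 arrays. At 3.5 h AT1G48840 read 6.79, 6.87 and 10.16 in the arrays labelled KNO3, against 6.77, 6.70 and 6.73 in those labelled KCl, so that 1 KNO3 array held the level of the KCl arrays at 2 h. UGT78D3 did the same, with 5.72, 5.80 and 8.51 in the arrays labelled KNO3, against 5.60, 5.64 and 5.71 in those labelled KCl.

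High levels of the 6 also occurred in arrays that stand apart. AT1G48840 read 8.14, 8.63 and 7.11 in roots incubated in continuous KNO3, against 8.77, 7.82 and 6.59 in roots incubated in KCl. Replicates 1 and 2 of each of these groups are the arrays with median correlations under 0.7. In KCl replicates 2 and 3 at 2 h and in KNO3 replicate 3 at 3.5 h the genes were high and the median correlation was 0.914, 0.903 and 0.883. All 6 were among the 72 probe sets at least 2-fold higher in KCl replicate 2 than in its closest array, KNO3 replicate 3, by 1.44 to 2.72 log2 units. What moves the 6 genes was not tested.

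**Figure D5:**
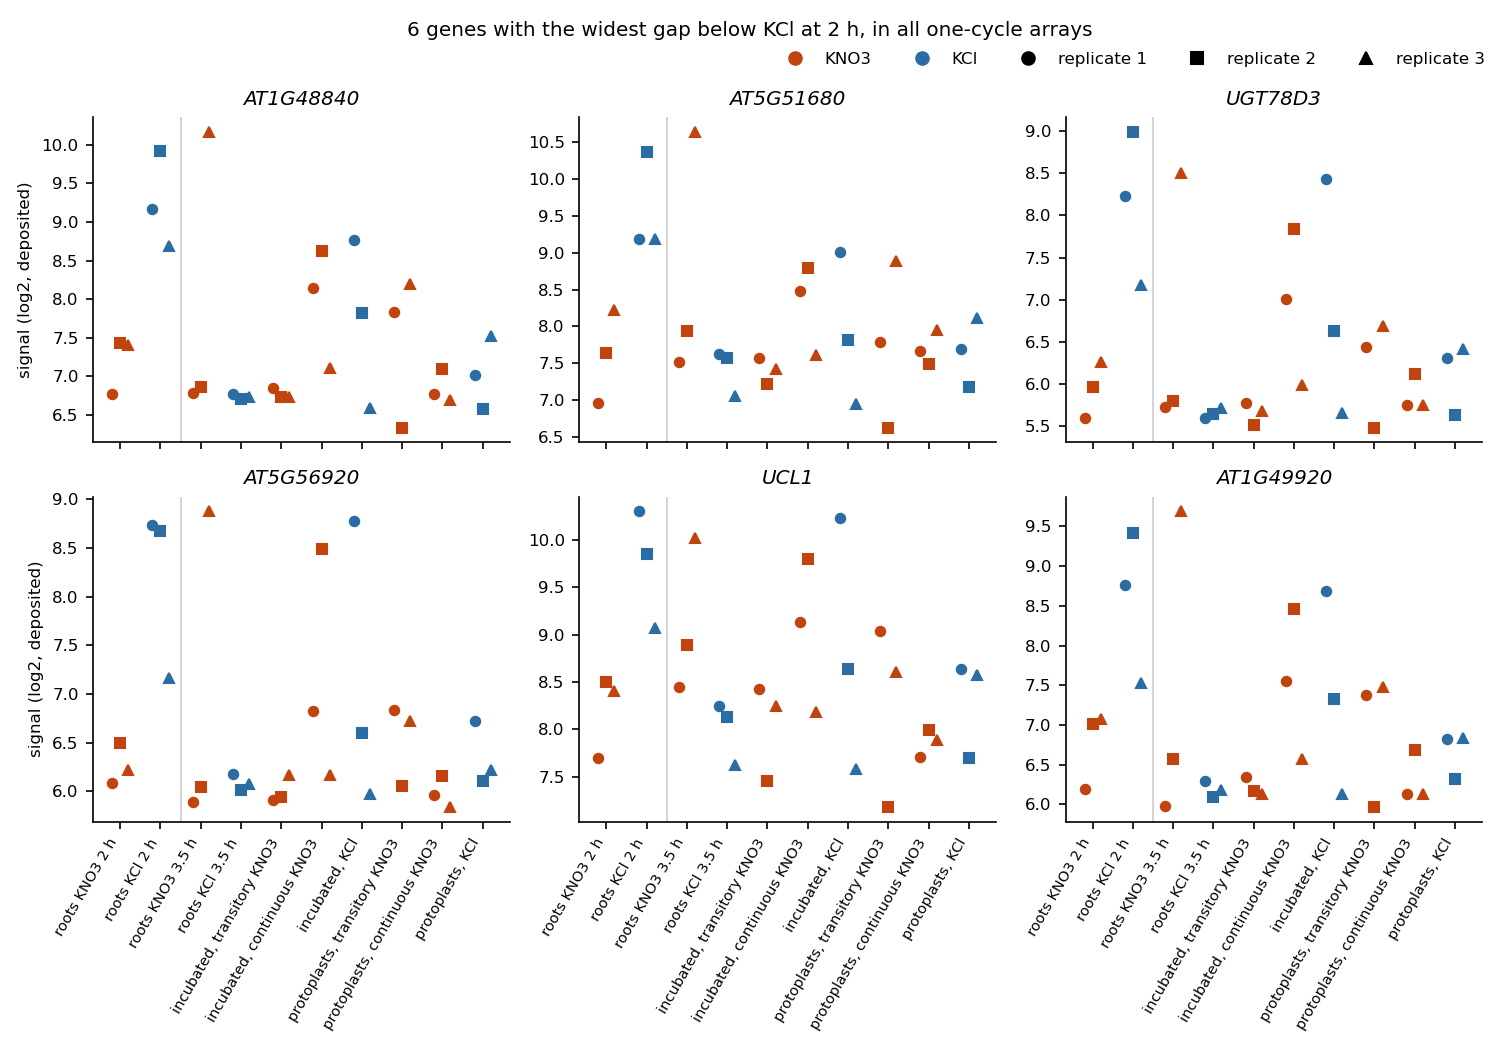
Deposited log2 signal of the 6 genes with the widest gap below KCl at 2 h in all 30 one-cycle arrays, by group, KNO3 in orange and KCl in blue, with symbols for the replicate. They are high in all 3 KCl arrays at 2 h and in replicate 3 of KNO3 at 3.5 h. In the other 5 directly frozen arrays of 3.5 h they are low, except UCL1 in KNO3 replicate 2. There it reads 8.89, near its 9.07 in KCl replicate 3 at 2 h.

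The other 6 genes below KCl had gaps of 0.21 to 0.29. AT4G39720 read 6.40, 6.36 and 6.34 in KNO3, against 7.24, 7.01 and 6.69 in KCl, a difference of -0.61 (SE 0.28, limma adjusted p = 0.785). AT4G17350 was the most even of the 24 genes, with 6.10, 6.06 and 6.12 in KNO3, against 6.33, 6.34 and 6.35 in KCl, a difference of -0.25 (SE 0.15). AT1G44030, AT1G16680, AT5G43745 and AT2G03260 differed by -0.47, -0.44, -0.72 and -0.49, and for AT5G43745 the value was -0.29 without KCl replicate 1. Only the list gene LBD29 (AT3G58190) joined them among the list members. LBD29, a lateral root factor of the LOB-domain family, read 5.41, 5.35 and 5.62 in KNO3, against 5.86, 6.09 and 5.69 in KCl, with a gap of 0.065.

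Auxin and lateral root genes were measured by 4 probe sets. None of the 4 passed the test, all 4 had a negative difference, and the median was -0.30. Over all probe sets tested, 12610 of 20236 were negative, with a median of -0.11. GH3.3 (AT2G23170), an enzyme that conjugates auxin, read 6.12, 6.50 and 8.01 in KNO3 replicates 1 to 3, against 6.06, 7.32 and 8.08 in KCl replicates 1 to 3. KNO3 replicate 3 and KCl replicates 2 and 3 were the high arrays, so that the order followed no label. The lateral root factor LBD16 differed by -0.22 (SE 0.19), GH3.1 by -0.33 (SE 0.28) and LBD29 by -0.42 (SE 0.27), with limma adjusted p of 0.785 each.

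Stress and clock genes were measured by 5 probe sets. HRA1 (AT3G10040), a repressor in the low-oxygen response, read 6.88, 5.54 and 6.13 in KNO3 replicates 1 to 3, against 5.83, 7.54 and 6.53 in KCl replicates 1 to 3. LDH1, lactate dehydrogenase, read 6.25, 6.37 and 6.82 in KNO3, against 4.94, 7.37 and 6.98 in KCl, with a difference of 0.05 (SE 0.48) that became -0.69 without KCl replicate 1. The clock gene GI differed by -0.22 (SE 0.26) and the stress factors STZ and WRKY53 by 0.37 (SE 1.17) and 0.02 (SE 0.28). For all 5 the groups overlapped.

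Genes of green shoot tissue were measured as markers of material other than root. Of 9 measured genes 0 passed the test, all 9 had a positive KNO3 minus KCl difference, and the median was 0.45. Their summed level was 60.1, 57.0 and 53.6 in KNO3 replicates 1, 2 and 3, against 55.3, 50.0 and 54.5 in KCl replicates 1, 2 and 3. PSAE-1, a subunit of photosystem I, read 7.32, 6.58 and 6.36 in KNO3, against 6.04, 5.70 and 6.43 in KCl, and RCA, Rubisco activase, read 6.82, 6.90 and 6.28 in KNO3, against 6.12, 5.93 and 6.53 in KCl. KNO3 replicate 1 was the highest of the 6 arrays in 6 of the 9 genes, and KCl replicate 2 lay below all KNO3 arrays in all 9. Over all 20236 probe sets, 7626 had a positive difference, KNO3 replicate 1 was the highest array in 1926, and KCl replicate 2 lay below all KNO3 arrays in 20.2%. In bulk RNA, more cells of a type and more RNA per cell cannot be told apart, and the part of shoot tissue in the other results was not tested.

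Markers of root tissues did not separate the groups. Of 20 listed, 6 had a probe set with 1 annotated gene. EXPA7, an expansin of root hairs, read 5.96, 6.46 and 6.10 in KNO3, against 6.82, 6.19 and 5.78 in KCl, above the filter value of 5.58 on every array. The ground tissue genes JKD, CO2 and GSO1 and the vascular factor LHW were also above it on all 6 arrays, and RCPG of the root cap, between 4.61 and 5.44, was below it on all 6. JKD read 6.20, 6.35 and 6.30 in KNO3, against 7.29, 6.30 and 6.21 in KCl. The constitutive gene UBC21 differed by 0.12 (SE 0.25). As a sign of RNA integrity, the 3' minus 5' signal of 1 pair of GAPDH control probe sets was taken. It was 2.47, 1.52 and 0.66 in KNO3 replicates 1, 2 and 3, against 2.73, 0.61 and 1.38 in KCl replicates 1, 2 and 3, and the groups overlapped. A second GAPDH pair differed in the place of KCl replicate 1. Its 3' probe set read 9.44, 10.30 and 10.23 in KNO3, against 6.25, 10.13 and 10.02 in KCl. Its 5' probe set read 8.975, 10.39 and 10.57 in KNO3, against 6.88, 10.48 and 10.25 in KCl. There the 3' end exceeded the 5' end in KNO3 replicate 1 only. KCl replicate 1 had the highest 3' minus 5' signal in the first pair and the lowest in the second. Both pairs ranked the other arrays alike. From highest to lowest these were KNO3 replicates 1 and 2, KCl replicate 3, KNO3 replicate 3 and KCl replicate 2. The part of RNA integrity in the other results was not tested.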

How the data were processed

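The authors deposited log2 expression signals per probe set for 84 ATH1 arrays, read here as log2 from their range of 0 to 14.46. Background correction and normalization are not given in the sources used here. Values were used as deposited. Of 22810 probe sets, 64 controls were left out of the tests. Genes were named from the platform table, which pairs 13513 probe sets with 1 gene, and RefSeq (TAIR10.1). Of 153 listed genes, 40 had a probe set.

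A probe set was tested if at least 3 of the 30 one-cycle arrays exceeded 5.58, the 40th percentile of their signals (20236 passed). Limma 3.58.1 in R 4.3.3 fitted 1 coefficient for each of 10 groups, with eBayes and an intensity trend. P-values were two-sided, adjusted by Benjamini-Hochberg over all tested probe sets at 0.05. The fit was tested on simulated data with 1 spread for all probe sets and no array that stands apart. That setting differs from these arrays, so it does not show how the fit behaves on them. Sorted-cell arrays were quantile normalized first. Figures used matplotlib 3.10.9 in Python 3.11.15.

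Named genes are list members, the 12 genes per direction with the widest gap between groups, and genes called. The members and lists were chosen with earlier results of these data known. Replicate numbers paired the samples at 3.5 h (correlations of deviations 0.82, 0.68 and 0.71 for replicates 1, 2 and 3) but not at 2 h (0.13, -0.07 and 0.01).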

Additional observations from a re-analysis of the deposited data

Results flagged for a closer look

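Named genes were examined for opposite directions at the 2 times, with all KNO3 arrays on one side of all KCl arrays at 2 h and on the other side at 3.5 h. This held for 7 of the 63 named genes. Over all 20236 probe sets tested, 59 lay above KCl at 2 h and below it at 3.5 h, and 52 the reverse. The 7 are among the genes chosen by their gap at 2 h, so that part of the condition was met by the choice. At 3.5 h their gaps ran from 0.013 for UGT78D3 to 0.199 for UCL1. The response at 3.5 h minus that at 2 h was -0.69 for AT3G27450 and -1.001 for AT1G23100, which lay higher in KNO3 at 2 h. It was 3.26 for AT1G48840, 3.21 for UGT78D3 and 2.65 for UCL1, all lower in KNO3 at 2 h. At 3.5 h AT1G48840 read 10.16 in KNO3 replicate 3 and 6.79 and 6.87 in replicates 1 and 2, and UGT78D3 read 8.51 in replicate 3 and 5.72 and 5.80 in replicates 1 and 2. UCL1 read 8.45, 8.89 and 10.01 in KNO3 replicates 1, 2 and 3 at 3.5 h, against 8.25, 8.13 and 7.63 in KCl replicates 1, 2 and 3. It was 0.83 for AT5G43745 and 0.72 for AT2G03260. The test of the difference itself did not pass for any of the 7, with a limma adjusted p of 0.97 each.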

How the results depend on the processing

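At 2 h, 17 of 18 alternatives gave 0 calls. The exception, array weights, gave 928 calls at 2 h (447 higher and 481 lower in KNO3) and 387 for the difference between times, while the 3.5 h comparison stayed at 0. Those weights were 18.3 for KCl replicate 2, 0.385 for replicate 3 and 0.013 for replicate 1, so replicate 2 carried nearly all the weight of the KCl group. The weights were estimated in a search that stopped before convergence. PGD3 turned to -0.84, 14 of the 63 named genes turned sign and 21 passed. With array weights and without the 5 arrays whose median correlation was under 0.7, an alternative chosen after seeing the data, the count at 2 h was 0. Leaving out 1 array at a time gave 0 calls for each of the 3 comparisons, with an unadjusted p below 0.05 for 85 (without KCl replicate 1) to 2500 probe sets (without KCl replicate 3) at 2 h. PGD3 ranged over 0.65 to 3.01 and HHO1 over 0.85 to 1.42 in these fits. The counts of probe sets without overlap, whose alternatives were also chosen after seeing the data, were 673 above KCl after quantile normalization, against 408, and 267 below KCl after median centring, against 439. Leaving out 1 array can only keep or raise these counts, and gave 726 to 1661 above and 875 to 2567 below. On the 48 probe sets KCl replicate 1 kept its side, at -1.64 after quantile normalization and -1.93 after median centring. The fit with the replicate block gave 0 calls at 2 h, at 3.5 h and for the difference, with 216, 3650 and 495 at an unadjusted p under 0.05. The block changed no call. Replicate numbers did not pair the samples at 2 h. Without KCl replicate 1, 8 of the 63 named genes turned sign, cICDH, PGD2, APS4, LDH1, JKD, EXPA7, RCPG and NRT2.5. The cause of these shifts was not tested. Signal near background limits the dim probe sets.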
